A study of Homo sapiens with 8 samples.

Results

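DHRS2 and 8 related members of the short-chain dehydrogenase/reductase family, DHRS1, DHRS3, DHRS4, DHRS7, DHRS7B, DHRS9, DHRS11 and DHRS13, were followed in HCT116 cells given a histone deacetylase inhibitor. A probe set, the group of short probes that reports 1 transcript, was taken for a member when its platform annotation gave exactly 1 gene symbol and that symbol was the member's. This gave 13 of the 54613 probe sets on the array, and 8 of the 19775 genes that have such a probe set. DHRS4 had none: its probe set is annotated to DHRS4L2 and DHRS4 together, so no value is given for it. DHRS2 was chosen by its deposited levels, because it rose with all the compounds in these same arrays, so its levels against vehicle are described without a test, while the other members were tested.

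HCT116 is an established human colorectal carcinoma line, grown here in DMEM with fetal bovine serum. Wells received largazole at 20 nM, SAHA at 2 µM, FK228 at 20 nM or vehicle, and RNA was taken after 10 h for 1 array each, with 2 arrays in each of the 4 groups. The sources used here do not say what the vehicle contained. Nor do they say that the 2 arrays of a group came from separate cultures, so a p-value here rests on a spread between arrays that may be technical. Largazole is a cyclic depsipeptide carried as a thioester, and FK228 (romidepsin) is a bicyclic depsipeptide closed by a disulfide. Both release a thiol that binds the zinc of the enzymes, whereas SAHA (vorinostat) binds it through a hydroxamic acid. SAHA was given at another dose, so only largazole and FK228 were tested against each other. The 3 comparisons with vehicle share the same 2 vehicle arrays.

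The short-chain dehydrogenases/reductases are NAD(P)(H)-dependent oxidoreductases that act on steroids, retinoids, sugars and reactive carbonyls. DHRS2, also known as HEP27, is a dicarbonyl reductase that can bind MDM2, the ubiquitin ligase of p53. DHRS3 reduces retinaldehyde to retinol and so works against retinoic acid synthesis. Histone deacetylases remove acetyl groups from histone tails, and their inhibitors raise transcription of some genes and lower that of others.

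Array medians lay between 4.47 and 4.51 on the log2 scale of the deposited values, in which 1 unit is a doubling. All 4 epithelial markers (EPCAM, KRT8, KRT18 and CDH1) passed the filter on dim probe sets, at levels of 9.40 to 12.95. Of the leukocyte markers only ITGAM passed, and PTPRC, which defines leukocytes, lay at 2.40 to 2.90. Of the fibroblast and endothelial markers, 3 of 6 passed, and COL1A1 lay at 7.0 to 7.25 on the vehicle arrays and at 7.66 to 8.56 on the treated ones. The other genes of that list did not separate in this way: DCN lay at 4.54 to 4.71 with vehicle and 4.17 to 4.74 on the treated arrays, PECAM1 at 5.05 to 5.37 and 5.21 to 5.33, and COL3A1, LUM and CDH5 were below the filter value. The log2 of the summed level of those 6 genes, most of it from COL1A1, was 7.80 to 7.87 on the vehicle arrays, 8.62 to 8.86 with largazole, 8.24 to 8.41 with SAHA and 8.17 to 8.29 with FK228, and its part in the results was not tested. In such bulk RNA, fewer cells that express a gene and less RNA per cell cannot be told apart.

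The promoters of DHRS2, DHRS3 and DHRS9 are shown because the first gene was the most raised member, the second the most lowered and the third a member with no call in any comparison. Each sequence is the 250 bases before the first-listed transcription start in RefSeq (GRCh38.p14), 5′ to 3′ along the gene's strand. Capitals mark a TATA box (TATAAA), a GC box (GGGCGG) or a CCAAT box (CCAAT), searched on both strands, none of which overlap here. The DHRS2 promoter lies at chr14:23629865-23630114 on the plus strand, that of DHRS3 at chr1:12618211-12618460 on the minus strand and that of DHRS9 at chr2:169066827-169067076 on the plus strand.
DHRS2: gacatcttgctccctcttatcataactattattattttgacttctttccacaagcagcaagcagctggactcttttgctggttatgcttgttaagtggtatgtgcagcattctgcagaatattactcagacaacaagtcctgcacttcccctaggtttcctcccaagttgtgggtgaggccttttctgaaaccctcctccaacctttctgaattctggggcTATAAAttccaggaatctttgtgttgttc
DHRS3: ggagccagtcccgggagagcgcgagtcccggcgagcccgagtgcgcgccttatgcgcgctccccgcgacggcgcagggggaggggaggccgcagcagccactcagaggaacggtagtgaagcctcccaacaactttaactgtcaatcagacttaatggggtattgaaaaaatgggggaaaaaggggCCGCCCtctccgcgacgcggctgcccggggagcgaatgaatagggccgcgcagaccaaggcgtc
DHRS9: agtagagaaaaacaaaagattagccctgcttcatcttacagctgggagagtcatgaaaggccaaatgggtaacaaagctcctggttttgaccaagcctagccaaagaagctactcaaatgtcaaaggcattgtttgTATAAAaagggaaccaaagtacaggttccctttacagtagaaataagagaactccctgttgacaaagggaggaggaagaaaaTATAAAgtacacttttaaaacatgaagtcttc

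The DHRS2 promoter held a TATAAA 29 bases before the start and no CpG dinucleotide, with a GC content of 43.2%. Across 35116 RefSeq promoters of the same length, the median was 11 CpG and 58.0% GC, and 6.06% of promoters had as few CpG as DHRS2. The DHRS3 promoter held 26 CpG and 65.2% GC, with 1 GC box 64 bases before the start. The DHRS9 promoter resembled that of DHRS2 in these features, with 0 CpG, 39.2% GC and TATAAA at 114 and 32 bases before the start. TATAAA was found in 10.7% of all promoters, GGGCGG in 42.6% and CCAAT in 32%. In all, 8 of the 9 members had a promoter in the RefSeq table, 15 promoters together, with 1 listed for DHRS2, 3 for DHRS3 and 4 for DHRS9. These matches are letters in a window and were not tied to binding of any factor.

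DHRS2 was high on every treated array and low on both vehicle arrays. Its probe set 214079_at lay at 7.70 and 7.47 on the vehicle arrays. It read 12.56 and 12.45 with largazole, 12.49 and 12.42 with SAHA and 12.44 and 12.51 with FK228. The 6 treated arrays thus spanned 12.42 to 12.56, with the compounds interleaved, and stood far above vehicle with no overlap.

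The second DHRS2 probe set, 206463_s_at, gave the same picture at 6.72 and 7.08 with vehicle. It read 11.69 and 11.75 with largazole, 11.65 and 11.84 with SAHA and 11.90 and 12.09 with FK228. The treated arrays again lay above both vehicle arrays, with both FK228 arrays highest.

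For 214079_at the log2 difference from vehicle was 4.92 ± 0.10 (SE, n = 2 arrays per group) with largazole, a 30.2-fold higher level. With SAHA it was 4.87 ± 0.10, or 29.2-fold, and with FK228 4.89 ± 0.10, or 29.6-fold. For 206463_s_at the differences were 4.82, 4.84 and 5.09 (each ± 0.14), or 28.3-fold, 28.7-fold and 34.2-fold. Among 13381 genes, each represented by its tested probe set of highest mean, DHRS2 had the largest rise with largazole and with SAHA and ranked 2 with FK228. There SYT11, a synaptotagmin of vesicle traffic, stood ahead of it at 4.92. The next gene in all comparisons was NEDD9, an adhesion scaffold protein, at 4.12, 4.01 and 4.18 with largazole, SAHA and FK228. Its vehicle level of 2.31 was below the filter value of 4.49, whereas DHRS2 was above it on every array. The order of the DHRS2 levels was vehicle, then the compounds, and the compounds did not differ beyond the spread of the arrays for 214079_at.

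**Figure D1:**
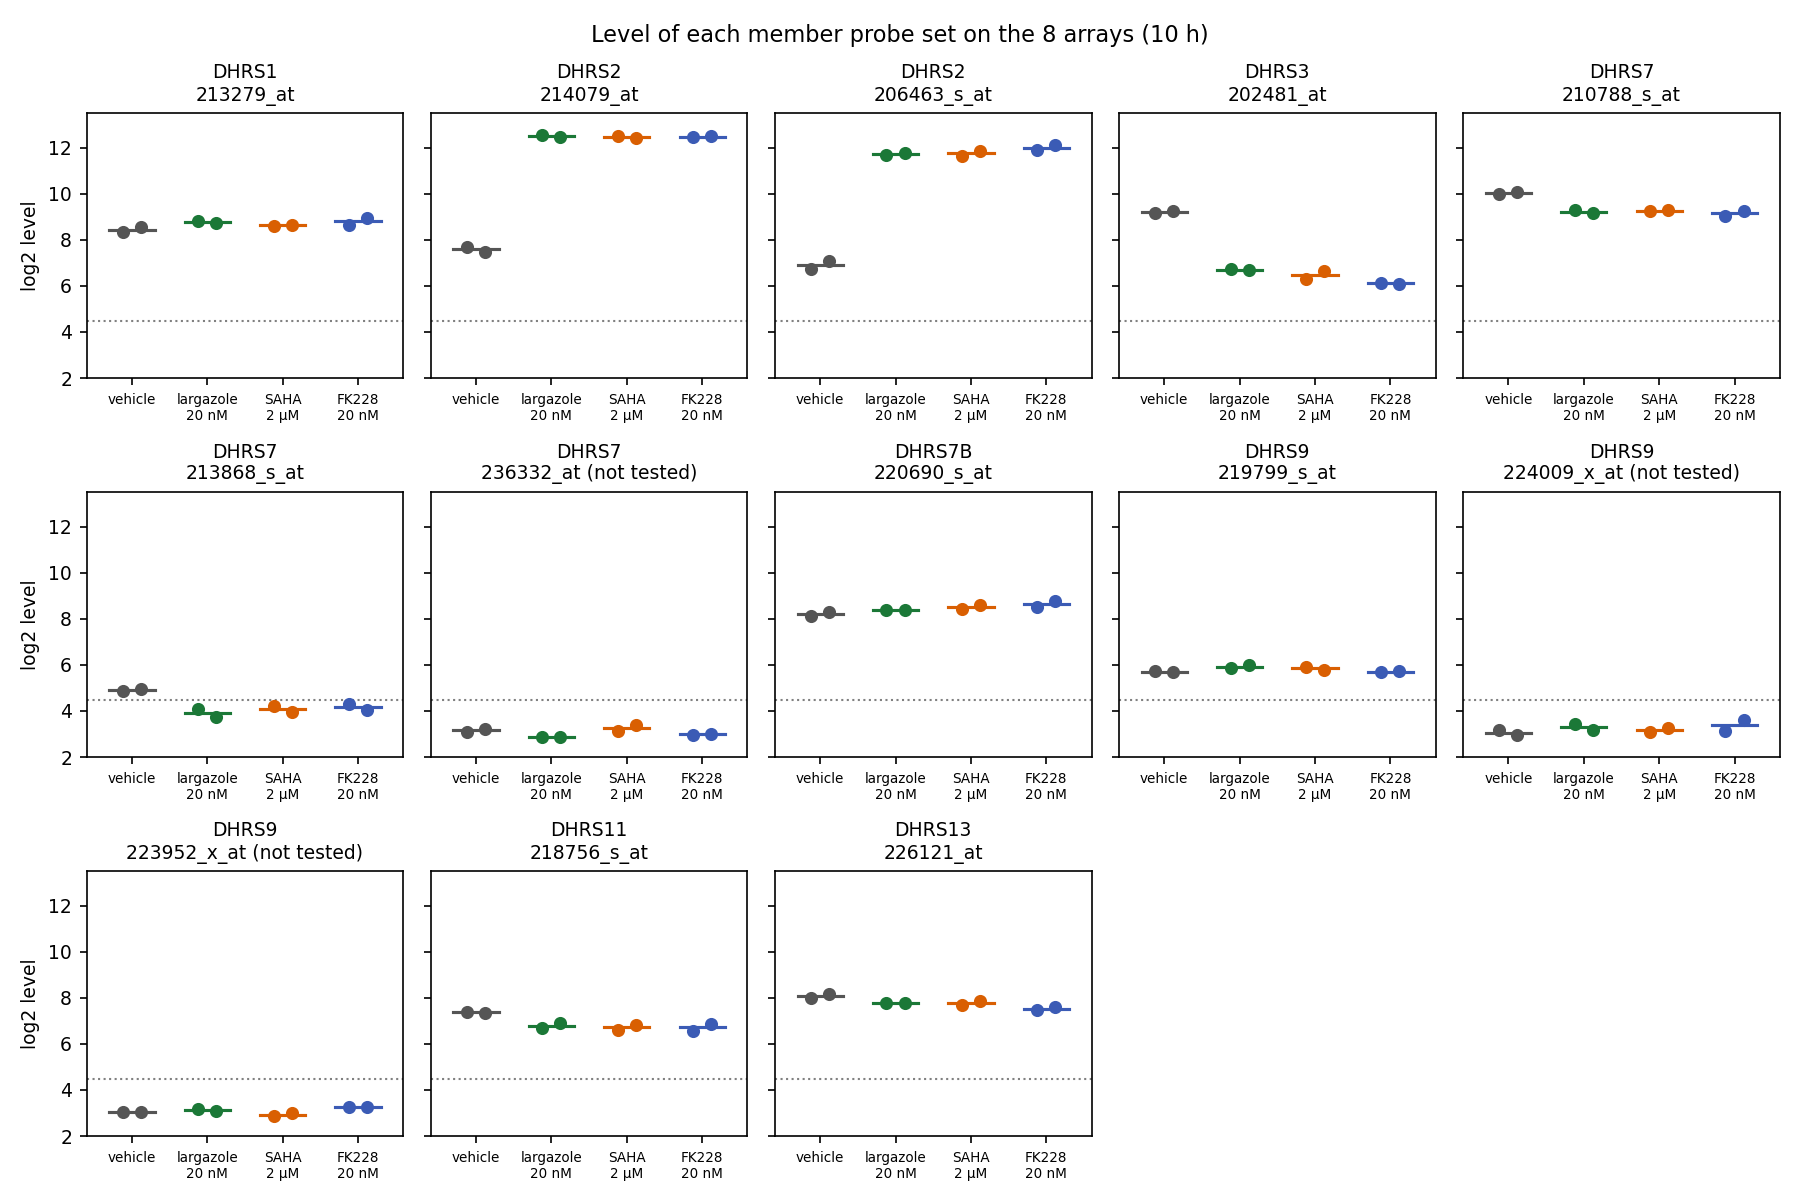
Deposited log2 level of each of the 13 probe sets on the 8 arrays, 1 panel per probe set, with points for arrays, a bar for the mean of 2 arrays and a dotted line at the filter value of 4.49. DHRS2 rises from 7.47 and 7.70 to at least 12.42 on 214079_at, DHRS3 drops from 9.18 and 9.26 to at most 6.72, and the other members move less.

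DHRS3 showed the opposite direction. Probe set 202481_at lay at 9.18 and 9.26 with vehicle. It read 6.72 and 6.68 with largazole, 6.30 and 6.63 with SAHA and 6.14 and 6.09 with FK228. Every treated array was below both vehicle arrays, and the FK228 arrays were the lowest.

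DHRS3 fell by 2.52 ± 0.12 on the log2 scale with largazole, a 5.74-fold lower level (adjusted p = 9.43e-06). It fell by 2.76 ± 0.12 with SAHA, or 6.75-fold (adjusted p = 6.01e-06), and by 3.11 ± 0.12 with FK228, or 8.62-fold (adjusted p = 1.8e-06). In the order of all 13381 genes by size of fall, DHRS3 stood at place 27 with largazole, 28 with SAHA and 32 with FK228. On the probe set of highest mean, no other member besides DHRS2 differed from vehicle by more than 1 log2 unit.

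Of the 7 tested members other than DHRS2, 4 fell, 0 rose and 3 were not called with largazole, 57.1% called against 45.2% of all 13381 genes. With SAHA the counts were also 4 fell, 0 rose and 3 not called, against 47.4% of all genes called. With FK228, 4 fell, 2 rose and 1 was not called, 85.7% against 52.8%. The calls of the 2 genes that rose, DHRS1 and DHRS7B, depended on the settings or on single arrays, as described below. Read against all genes, the shares with largazole and SAHA lie near the background, and 7 genes are few. The median log2 difference of the 7 genes was -0.32 with largazole, -0.31 with SAHA and -0.55 with FK228, where the median of all genes was 0.00, -0.02 and 0.01. DHRS3, DHRS7, DHRS11 and DHRS13 were the genes called lower with each compound, those of DHRS13 with largazole and SAHA under some scalings only. With largazole the count of called members was 2 without largazole replicate 1 and 2 without vehicle replicate 2. Among all genes, 23.2% fell and 21.9% rose with largazole, 25.2% fell and 22.1% rose with SAHA, and 27.1% fell and 25.7% rose with FK228.

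**Figure D2:**
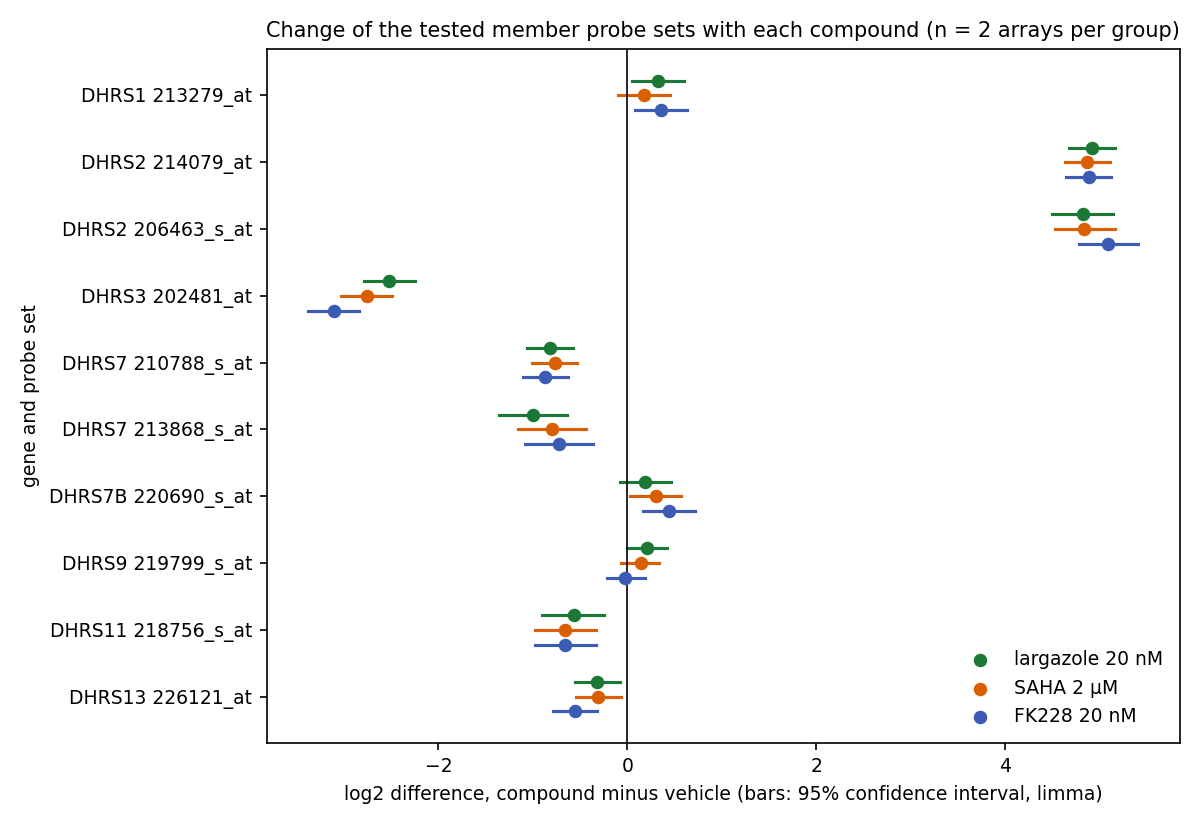
Log2 difference from vehicle of the 10 tested probe sets with each compound, with points for the estimate and bars for its 95% confidence interval from limma (2 arrays per group). The DHRS2 estimates lie at 4.82 to 5.09, a description only, since DHRS2 was chosen for its rise in these arrays. The intervals of DHRS3 lie below -2, and the remaining estimates lie between -1.0 and 0.44.

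DHRS7, an endoplasmic reticulum reductase of steroids and retinoids, fell with each compound. Probe set 210788_s_at read 9.97 and 10.08 with vehicle, 9.27 and 9.14 with largazole, 9.23 and 9.29 with SAHA and 9.05 and 9.26 with FK228. No treated array reached the vehicle level. The log2 difference was -0.82 ± 0.10 with largazole (adjusted p = 0.000542), -0.77 ± 0.10 with SAHA (adjusted p = 0.000655) and -0.87 ± 0.10 with FK228 (adjusted p = 0.000264). The second tested probe set, 213868_s_at, read 4.86 and 4.94 with vehicle and 3.72 to 4.32 on the treated arrays. It passed the filter only through the vehicle arrays, so its differences of -1.0, -0.80 and -0.72 add no count. The third, 236332_at, stayed at 2.87 to 3.37 on all arrays and was not tested.

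DHRS11, a cytosolic reductase of steroids and carbonyls, fell less. Probe set 218756_s_at read 7.38 and 7.36 with vehicle, 6.68 and 6.91 with largazole, 6.60 and 6.83 with SAHA and 6.55 and 6.88 with FK228. All treated arrays were below both vehicle arrays, and those of the 3 compounds overlapped each other. The log2 difference was -0.57 ± 0.14 with largazole (adjusted p = 0.0129), -0.66 ± 0.14 with SAHA (adjusted p = 0.00639) and -0.66 ± 0.14 with FK228 (adjusted p = 0.00548). The call with largazole was lost when largazole replicate 1 was left out (-0.46, adjusted p = 0.0857), and likewise for vehicle replicate 1 (adjusted p = 0.0583) and for vehicle replicate 2 (adjusted p = 0.0547).

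DHRS13 had smaller falls. Probe set 226121_at read 7.98 and 8.17 with vehicle, 7.76 and 7.76 with largazole, 7.70 and 7.84 with SAHA and 7.46 and 7.59 with FK228. The treated arrays were all below vehicle, those of FK228 the furthest. The log2 difference was -0.55 ± 0.10 with FK228 (adjusted p = 0.00255), -0.32 ± 0.10 with largazole (adjusted p = 0.0389) and -0.31 ± 0.10 with SAHA (adjusted p = 0.0404). The last 2 calls were lost with arrays set to equal ribosomal protein medians (adjusted p = 0.0681 with largazole and 0.0628 with SAHA), with further quantile normalization (0.066 and 0.0522) and with no filter (0.0923 and 0.0935). They did not hold without vehicle replicate 2 either, where the differences were -0.22 (adjusted p = 0.209) and -0.21 (adjusted p = 0.215). The call with largazole was also lost without either largazole replicate (adjusted p = 0.133 and 0.132), and that with SAHA without either SAHA replicate (0.176 and 0.0523) or either largazole replicate (0.0663).

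DHRS7B and DHRS1 were called higher with FK228 and did not pass the test with largazole or SAHA, though the calls of both genes depended on the settings. DHRS7B, a peroxisomal reductase of ether lipid synthesis, read 8.11 and 8.29 with vehicle on 220690_s_at. It read 8.39 and 8.40 with largazole, 8.41 and 8.59 with SAHA and 8.53 and 8.77 with FK228. All treated arrays were above vehicle, by small steps. The log2 difference was 0.44 ± 0.12 with FK228 (adjusted p = 0.0142), 0.30 with SAHA (adjusted p = 0.073) and 0.19 with largazole (adjusted p = 0.235). The rise with FK228 was not called when FK228 replicate 2 was left out (0.32, adjusted p = 0.0838), nor when vehicle replicate 1 was (0.35, adjusted p = 0.0905).

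DHRS1, an endoplasmic reticulum member of the family, read 8.34 and 8.55 with vehicle on 213279_at. It read 8.80 and 8.74 with largazole, 8.58 and 8.66 with SAHA and 8.66 and 8.94 with FK228. The lower SAHA array, at 8.58, nearly met the higher vehicle array, and no treated array lay below it. The log2 difference was 0.36 ± 0.12 with FK228 (adjusted p = 0.0386), 0.32 with largazole (adjusted p = 0.0639) and 0.18 with SAHA (adjusted p = 0.279). Under some settings the rise with largazole was called, among them a stricter filter (adjusted p = 0.0311) and an intensity trend (0.0215). That with FK228 was not called with no filter (adjusted p = 0.0751) or with only the FK228 and vehicle arrays fitted (0.0819). The rise with FK228 was lost without FK228 replicate 2 (0.22, adjusted p = 0.208), without vehicle replicate 1 (0.25, adjusted p = 0.208), without either largazole replicate (adjusted p = 0.0594) and without either SAHA replicate (adjusted p = 0.0519). Whether DHRS1 or DHRS7B responded differently to FK228 than to SAHA was not tested, because the doses differ.

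DHRS9, an enzyme that oxidises retinol and hydroxysteroids, was called with no compound. Probe set 219799_s_at read 5.75 and 5.67 with vehicle, 5.86 and 5.98 with largazole, 5.90 and 5.79 with SAHA and 5.67 and 5.72 with FK228. The FK228 arrays overlapped vehicle, and those of largazole and SAHA lay above it. The log2 difference was 0.21 with largazole (95% interval 0.00 to 0.42, adjusted p = 0.0988), 0.14 with SAHA (-0.07 to 0.34, adjusted p = 0.26) and -0.02 with FK228 (-0.22 to 0.19, adjusted p = 0.903). The other DHRS9 probe sets, 224009_x_at at 2.94 to 3.6 and 223952_x_at at 2.86 to 3.27, were not tested.

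Largazole and FK228 were compared at the same dose and time, where 9.07% of all genes differed, 4.88% being higher and 4.19% lower with largazole. Of the 7 members other than DHRS2, 1 was higher with largazole and 6 were not called. The called gene was DHRS3, 0.59 ± 0.12 log2 higher with largazole (95% interval 0.32 to 0.86, adjusted p = 0.0258), a 1.5-fold difference. The smaller fall with largazole was seen on both arrays, at 6.72 and 6.68 against 6.14 and 6.09. The call was lost without either largazole replicate (adjusted p = 0.15 and 0.11) or either FK228 replicate (adjusted p = 0.0804 and 0.0992), while the difference stayed between 0.56 and 0.61. It was also lost with no filter on dim probe sets (adjusted p = 0.0538).

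DHRS2 did not pass the test between largazole and FK228 on either probe set. On 214079_at the difference was 0.03 (95% interval -0.21 to 0.27, adjusted p = 0.879), which leaves room for a difference of up to about 0.27 in size. On 206463_s_at both largazole arrays were below both FK228 arrays, with a difference of -0.27 (-0.59 to 0.05, adjusted p = 0.259). The members nearest to a call were DHRS9 at 0.22 (0.02 to 0.43, adjusted p = 0.163) and DHRS13 at 0.24 (0.00 to 0.47, adjusted p = 0.189). DHRS7B differed by -0.25 (-0.52 to 0.02, adjusted p = 0.22), DHRS7 by 0.05 on 210788_s_at (-0.19 to 0.29, adjusted p = 0.809), DHRS11 by 0.08 (-0.24 to 0.41, adjusted p = 0.759) and DHRS1 by -0.03 (-0.31 to 0.24, adjusted p = 0.893). A p that misses the threshold does not show that the compounds act alike on these genes, and with 2 arrays per group an exact permutation test of 1 gene cannot go below 0.333.

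**Figure D3:**
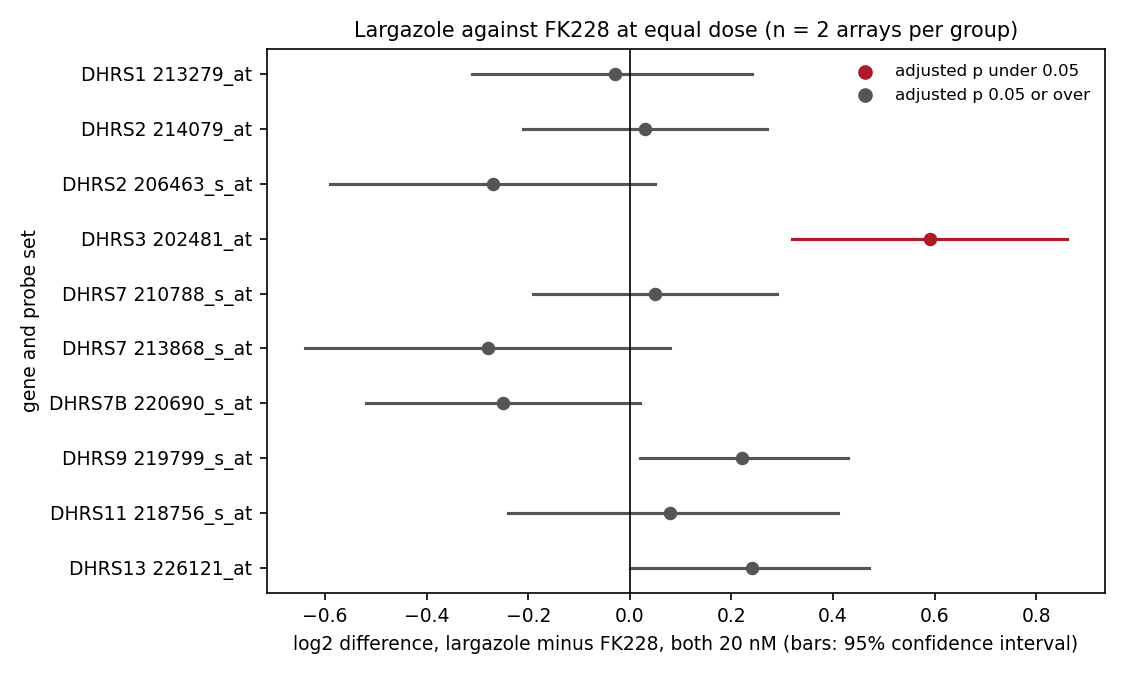
Log2 difference between largazole and FK228, both at 20 nM, for the 10 tested probe sets, with bars for the 95% confidence interval from limma (2 arrays per group). DHRS3 at 0.59 is the probe set with an adjusted p under 0.05, and that call is lost when either array of either compound is left out.

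The genes beside DHRS2 on chromosome 14 did not rise as far as it did. Since DHRS2 was chosen for its rise in these arrays, that was likely beforehand for any genes. The 5 measured protein-coding genes on each side, in RefSeq gene order, were CMTM5, NGDN, THTPA, ZFHX2 and AP1G2 before it and CARMIL3, CPNE6, NRL, PCK2 and DCAF11 after it. With largazole 2 of these 10 fell and 8 were not called, with SAHA 3 fell and 1 rose, and with FK228 2 fell and 1 rose, against 45.2%, 47.4% and 52.8% of all genes called in either direction. THTPA, a thiamine triphosphatase, fell by 0.96, 0.88 and 1.09 with largazole, SAHA and FK228 (adjusted p = 0.00142, 0.00191 and 0.000496). AP1G2, a gamma adaptin of vesicle coats, fell by 0.51, 0.72 and 0.70 (adjusted p = 0.00334, 0.000583 and 0.000525). The largest rise among the 10 was that of DCAF11, 0.32 with FK228 (adjusted p = 0.0214), beside 4.89 for DHRS2. That call was lost without vehicle replicate 1 (adjusted p = 0.115) or FK228 replicate 2 (adjusted p = 0.0947), with no filter (adjusted p = 0.056) and as the mean of its probe sets (0.19, adjusted p = 0.108). Its rise with SAHA (0.28, adjusted p = 0.0423) and the fall of ZFHX2 with SAHA (-0.31, adjusted p = 0.0407) were each lost without any 1 of the SAHA, FK228 or vehicle arrays, with adjusted p up to 0.186 and 0.187, and as the mean of their probe sets (0.19 and -0.12). DHRS4 is 1 gene from DHRS2 in this order, DHRS1 is 27 and DHRS7 is 180 genes away, so 4 of the 9 members lie on chromosome 14.

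**Figure D4:**
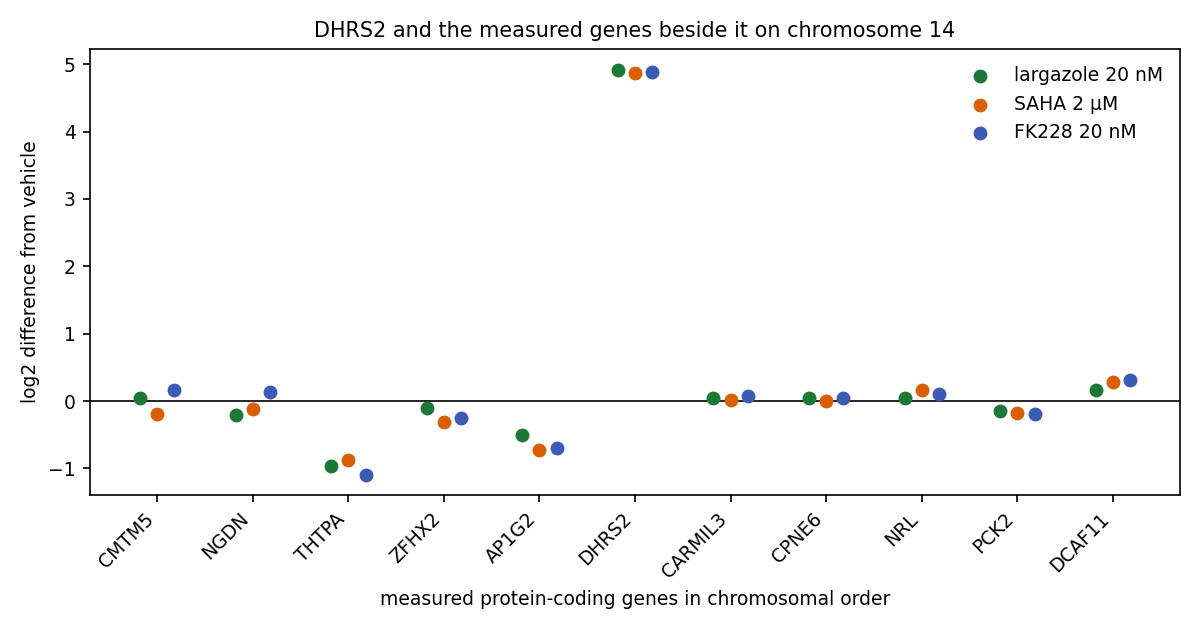
Log2 difference from vehicle of DHRS2 and of the 5 measured protein-coding genes on each side of it, in chromosomal order, with 1 point per compound (mean of 2 arrays minus mean of 2 vehicle arrays). DHRS2, chosen for its rise in these arrays, stands at 4.87 to 4.92, and no neighbour lies above 0.32.

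The genes whose pattern over the 8 arrays was most like that of DHRS2 214079_at were PARM1, KCNS3, ZBTB18, PPP1R14C and NEDD9. Their Pearson r was 0.9993, 0.9988, 0.9986, 0.9983 and 0.9982. PARM1, a mucin-like membrane protein, differed from vehicle by 1.61, 1.53 and 1.58 with largazole, SAHA and FK228. ZBTB18, a transcriptional repressor, differed by 2.22, 2.22 and 2.20. KCNS3, a modulatory potassium channel subunit, differed by 1.48 to 1.53 and PPP1R14C, an inhibitor of a protein phosphatase, by 1.66 to 1.71. All share a vehicle level apart from 3 near-equal treated levels, and 114 of 13380 genes had an r above 0.99, so these names are a description of the shape.

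The rest of the family did not move as one. Of 62 other short-chain dehydrogenase/reductase genes listed, 56 were on the array under 1 symbol and 43 were tested. With largazole 14 rose and 11 fell (58.1% called), with SAHA 14 rose and 13 fell (62.8%), and with FK228 11 rose and 14 fell (58.1%), where 45.2%, 47.4% and 52.8% of all genes were called. HPGD passed the filter only through the treated arrays. Without it 13, 13 and 10 of 42 genes rose (57.1%, 61.9% and 57.1% called). The median log2 differences of 0.01, -0.04 and 0.06 were near those of all genes, 0.00, -0.02 and 0.01. With all 3 compounds 9 genes besides HPGD rose and 10 fell, 0 moved in opposite directions and 12 were called with none. How many of all genes show these patterns was not counted, and the 3 comparisons share the vehicle arrays. Whether the counts set the family apart from all genes was not tested.

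GMDS, an enzyme of GDP-fucose synthesis, rose by 0.88, 0.84 and 0.87 with largazole, SAHA and FK228. DCXR, a xylulose reductase, rose by 0.79, 0.65 and 0.93, and NSDHL, an enzyme of cholesterol synthesis, by 0.59, 0.81 and 0.98. HPGD, which inactivates prostaglandins, differed from its vehicle level of 4.15 by 1.23, 1.27 and 1.2, a description only, since it had to be high on treated arrays to enter the test. The deepest falls by the probe set of highest mean were those of HSD17B1, which makes estradiol, at -1.17, -1.36 and -1.84, and BDH1, a mitochondrial ketone body dehydrogenase, at -1.38, -1.43 and -1.41. SPR, which makes tetrahydrobiopterin, differed by -1.11, -1.28 and -1.16. As the mean of their probe sets, HSD17B1 differed by -0.64, -0.71 and -1.05 and BDH1 by -0.90 with largazole and -0.95 with SAHA. Without probe sets named _x_at or _s_at, BDH1 differed by -0.42, -0.48 and -0.56 (adjusted p = 0.0204, 0.00983 and 0.00395). None of the listed genes fell as far as DHRS3. None rose as far as DHRS2 either, which says little of the family, since DHRS2 was chosen for its rise in these arrays.

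Between largazole and FK228, 4 of the 43 genes differed (9.30%, against 9.07% of all genes). CBR3, a carbonyl reductase, was 0.77 higher with largazole (adjusted p = 0.0121), SDR16C5, an epidermal retinol dehydrogenase, 0.45 higher (adjusted p = 0.0282) and RDH11, a retinal reductase, 0.44 higher (adjusted p = 0.0498). HSDL1 was lower, at -0.40 (adjusted p = 0.032). Each of these calls was lost without largazole replicate 1 (adjusted p = 0.0913, 0.178, 0.228 and 0.16) or replicate 2 (0.0697, 0.0971, 0.161 and 0.146), and for SDR16C5, RDH11 and HSDL1 also without either FK228 replicate. That of RDH11 was also lost without either SAHA replicate (adjusted p = 0.0679) and that of HSDL1 without either vehicle replicate (adjusted p = 0.0535). With no filter the calls of SDR16C5, RDH11 and HSDL1 were lost (adjusted p = 0.0744, 0.109 and 0.0893).

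**Figure D5:**
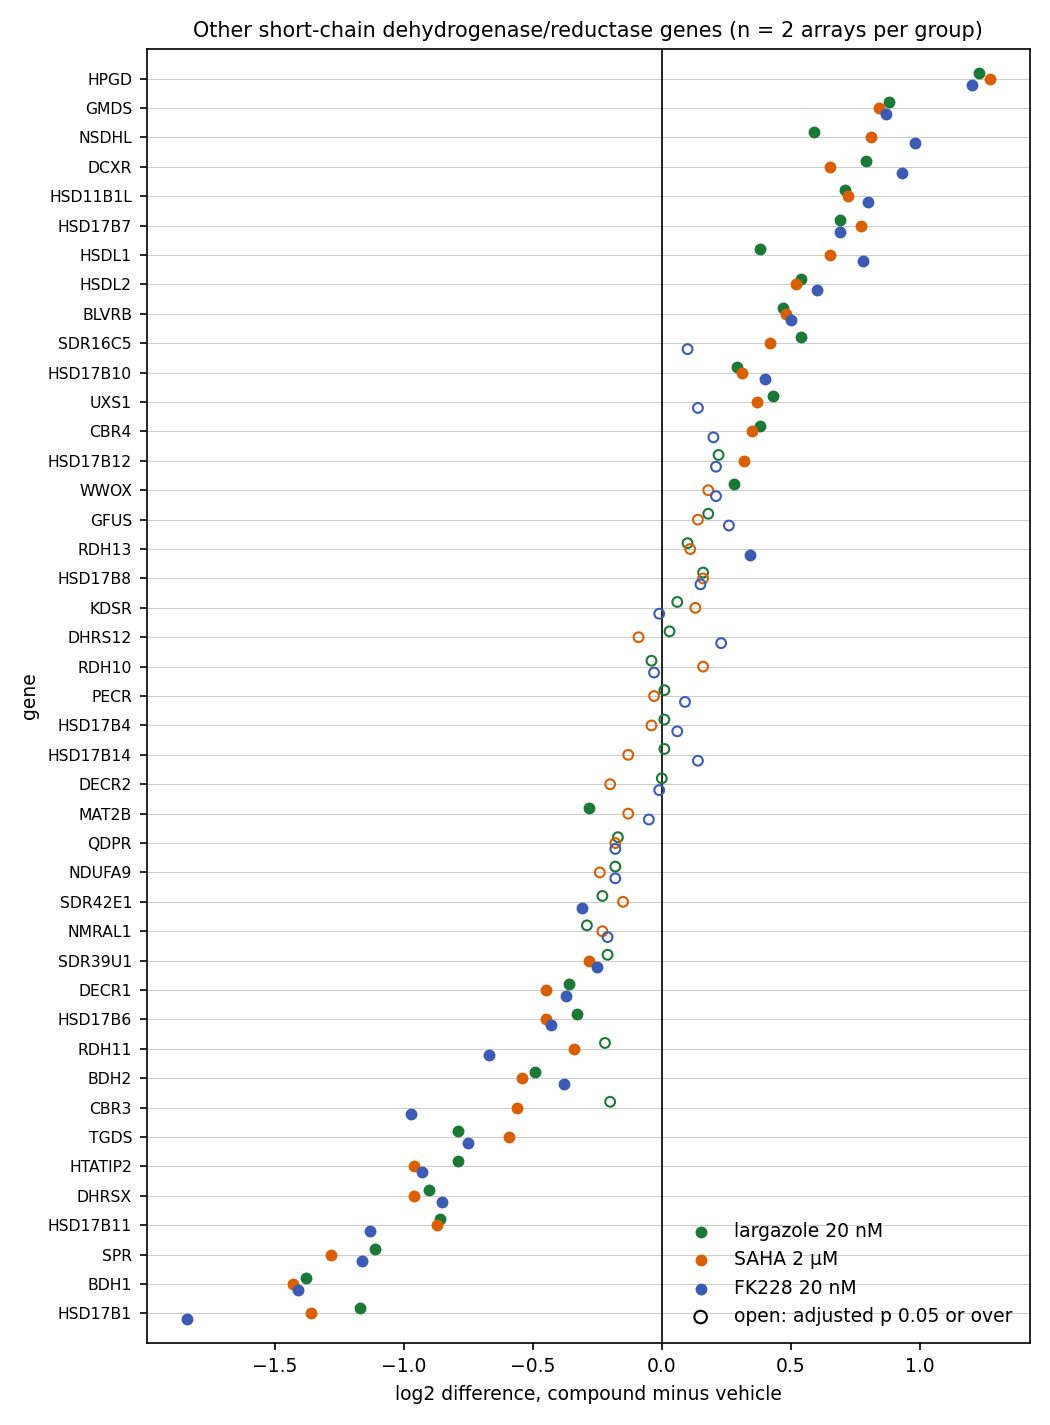
Log2 difference from vehicle of the 43 tested genes of the other short-chain dehydrogenase/reductase list with each compound, ordered by mean difference, with filled points for an adjusted p under 0.05 and open points otherwise. The values run from -1.84 (HSD17B1, FK228) to 1.27 (HPGD, SAHA), HPGD having passed the filter through the treated arrays alone.

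DHRS3 and DHRS9 act in retinoid metabolism, where retinol is oxidised to retinaldehyde and then to retinoic acid, which acts through RAR and RXR receptors. Of 30 other genes listed for this pathway, 26 were on the array under 1 symbol and 17 were tested. With largazole and with SAHA 5 rose and 4 fell (52.9% called in each), and with FK228 3 rose and 4 fell (41.2%), where 45.2%, 47.4% and 52.8% of all genes were called. LRAT passed the filter only through the treated arrays, and without it 4, 4 and 2 of 16 genes rose. Over all 17, the rises with largazole numbered 2 without largazole replicate 1 or vehicle replicate 1, and those with SAHA 2 without either SAHA replicate or vehicle replicate 1 and 3 without either largazole replicate. The receptors RXRA (-0.75, -0.88 and -0.93 with largazole, SAHA and FK228) and RXRB (-0.74, -0.67 and -0.64) fell with all compounds, as did ALDH1A3 (-0.74, -0.91 and -1.29), which makes retinoic acid from retinaldehyde. As the mean of its probe sets, RXRA differed by -0.5, -0.54 and -0.63 with largazole, SAHA and FK228. DGAT1, which esterifies lipids including retinol, rose by 0.55, 0.42 and 0.64.

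LRAT, the main retinol esterifying enzyme, was measured at 2.96 and 3.45 with vehicle, below the filter value, and at 3.98 to 5.08 on the treated arrays, so its differences of 1.45, 1.35 and 1.33 are a description only. CYP26B1, which degrades retinoic acid, was 0.40 higher with largazole (adjusted p = 0.00468) and 0.39 higher with FK228 (adjusted p = 0.00372), and 0.10 higher with SAHA (adjusted p = 0.368). As the mean of its probe sets the difference was 0.15 with largazole (adjusted p = 0.173) and 0.28 with FK228 (adjusted p = 0.0175). ADH4 was 0.42 higher with SAHA (adjusted p = 0.0446), which was lost without vehicle replicate 1 (0.20, adjusted p = 0.227) and without either replicate of SAHA (0.133 and 0.118) or of largazole (0.0677). ALDH1A3 was 0.55 higher with largazole than with FK228 (adjusted p = 0.0177), lost without either largazole replicate (adjusted p = 0.13 and 0.0764) or FK228 replicate 1 (0.0786).

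MDM2, the partner of DHRS2 named above, was lower with FK228 by 0.86 log2 units on its highest probe set (adjusted p = 0.0035). It differed by -0.16 with largazole (adjusted p = 0.504) and by -0.16 with SAHA (adjusted p = 0.484). The size depends on the probe set. Without probe sets named _x_at or _s_at, MDM2 differed by -0.41 with FK228 (adjusted p = 0.0323), -0.37 with largazole (0.0545) and -0.25 with SAHA (0.165). MDM4, its relative, fell by 0.40, 0.65 and 0.80 with largazole, SAHA and FK228, and CDKN1A, a cell cycle inhibitor that p53 induces, rose by 0.86, 0.95 and 0.94. The fall of MDM4 with largazole was not called without largazole replicate 2 (-0.31, adjusted p = 0.123) or either vehicle replicate (0.0669 and 0.0794). MDM2 was 0.70 higher with largazole than with FK228 (adjusted p = 0.0448), but 0.04 (adjusted p = 0.893) without probe sets named _x_at or _s_at. That call was also lost without any 1 of the largazole, FK228 or vehicle arrays (adjusted p from 0.0542 to 0.231).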

How the data were processed

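Total RNA of 8 HCT116 samples was hybridised to Affymetrix arrays. The authors deposited log2 values per probe set, from 1.71 to 14.67. Per the submitters' processing notes, the tools were affy, RMA and limma, with no versions or order. Their log scale was read from the values. All 8 arrays entered 1 fit with limma 3.58.1 (R 4.3.3), with 1 coefficient per group and no block. Probe sets were tested if their second-highest value reached 4.49, the median of all values, which left 28985 of 54613. Benjamini-Hochberg adjustment ran over all of these, and calls are adjusted p under 0.05. A gene stands for its tested probe set of highest mean (13381 genes). Annotation gave 1 symbol to 41091 probe sets, several to 1801 and none to 11721. Residual degrees of freedom were 4, and the median 95% half-width of a difference was 0.26, so precision is limited by how few arrays there were. The fit was tested on simulated data with changes in the largazole group alone and independent noise, which does not cover noise shared between arrays.

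The members and lists were chosen with earlier results of these data known. Named are every member probe set, up to 3 highest and 3 lowest called genes per list and comparison, all MDM2 and p53 genes with a tested probe set, the 5 genes most like DHRS2, 5 measured neighbours on each side and genes that rose at least as far as DHRS2. NEDD9 as the next gene, COL1A1 and the leukocyte marker values were named after their values were seen. Alternatives changed the filter, prior, replicate block, array weights, scale, arrays fitted, probe sets and replicates. Promoters came from RefSeq, which lists none here for DHRS7 (not used here). List counts without genes that passed the filter only through the treated arrays were added after seeing the data.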

Additional observations from a re-analysis of the deposited data

How the results depend on the processing

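Each alternative changed 1 choice. Without probe sets named _x_at or _s_at, only DHRS1, DHRS3 and DHRS13 were tested besides DHRS2, and none of their calls changed. That made 2 called with largazole, 2 with SAHA and 3 with FK228, in place of 4, 4 and 6 of 7 members. With no filter, 0 members differed between largazole and FK228, where 1 did otherwise. Leaving out 1 array gave 2 to 5 called members with largazole, 3 to 4 with SAHA, 4 to 6 with FK228 and 0 to 1 between largazole and FK228. An array left alone in its group is assumed to vary like the other groups. The replicate block gave 5, 5, 6 and 1 called members, adding DHRS1 with largazole (0.32, adjusted p = 0.0375) and DHRS7B with SAHA (0.30, adjusted p = 0.0242). Deviations of same-numbered arrays correlated at 0.13 to 0.27 over the pairs of groups. Each comparison holds 2 numbers, and the labels do not tie the numbers to a shared culture or day. By the labels the arrays share only a number, and whether they were paired cannot be told.

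The rise of DHRS2 on 214079_at stayed at 4.80 to 5.03 with largazole, 4.75 to 4.99 with SAHA and 4.77 to 5.0 with FK228 when 1 array was left out. No value of the named genes that was called changed direction. The count of retinoid genes that rose went from 5 to 3 with largazole and from 5 to 2 with SAHA under the stricter filter. Of the genes that rose, LRAT and BCO2, and with SAHA also ADH4, lay below its value of 6.87 and were no longer tested. The count of other family genes that rose with FK228 went from 11 to 6 without probe sets named _x_at or _s_at. The rises of HPGD, GMDS, HSDL2, HSD17B7 and RDH13 rested on probe sets so named, which this setting leaves out. Between largazole and FK228 the count of other family genes went from 3 to 6 higher and from 1 to 3 lower under an intensity trend. Other scalings moved the median of all probe sets to at most 0.042. The filter value limits dim genes: 3 of the 13 member probe sets were not tested.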
